A study of Mus musculus with 3 samples.

Results

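Abhd11 and 6 genes of the lipoate pathway, Lias, Lipt1, Gcsh, Dbt, Bckdha and Bckdhb, were examined for binding of estrogen-related receptor alpha (ESRRA) in mouse duodenal villus cells. These 7 genes were taken by name from 22367 protein-coding genes of the GENCODE M1 annotation on the mm9 genome build, because they make, attach, carry or protect lipoate or form the branched-chain dehydrogenase. Abhd11 was included as a gene already named as an ESRRA target in the study, so that its peak and its place among all genes follow from that choice. A gene was counted as having a peak when the midpoint of an ESRRA peak lay within 30 kb of any of its transcript start sites, and genes without one were kept. ESRRA is an orphan nuclear receptor that binds DNA as a transcription factor and is known for its targets among mitochondrial genes. Chromatin came from the duodenal epithelium of WT C57BL/6 mice on regular chow, and the label gives the cells as adult villus cells. They were fixed with DSG, which links proteins to each other, and with formaldehyde, then precipitated with an anti-Esrra antibody in 2 ChIP libraries beside 1 input library of sheared chromatin. No group without the receptor or with another diet entered this comparison, and how many mice gave each library is not given in the sources used here.

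Lipoate is a sulfur-containing cofactor that is fixed to a lysine of a few mitochondrial enzyme complexes. Its octanoyl precursor is built on the mitochondrial acyl carrier protein. Lipoate synthase inserts the sulfur atoms using iron-sulfur clusters, and lipoyl transferases pass the finished group on to the complexes. The lipoylated complexes oxidise pyruvate, alpha-ketoglutarate, branched-chain keto acids and glycine, and a lipoyl arm carries the intermediate from one active site to the next. In the intestinal epithelium these complexes feed the tricarboxylic acid cycle of the absorptive cells that line the villus.

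The values are positions only. Both ChIP libraries were merged before peaks were called, so the data hold 1 list of 1639 peaks, each 601 bp wide, with no height, p-value or read count per peak. No spread between libraries can be given for any value below, and the depth of the libraries was not analysed here. A missing peak therefore means that none was called near a gene at the threshold of the study, and binding below it was not detectable here.

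The sequences below set the peak of Abhd11 beside stretches near start sites of members without a peak. They are a description, and the shares of all genes with the same sequences are given further below. ESRRA is known to bind extended half-sites of the nuclear receptor family, written here as TCAAGGTCA, of which AGGTCA is the core and AAGGTCA the core with the base before it. The first line is the part of the Abhd11 peak that holds no untranslated sequence, chr5:135485582-135485851 on the plus strand of mm9. It opens with the start codon of the coding transcript and runs from its first exon through its first intron, and base 53 is the peak midpoint. The capitals mark the only AGGTCA found in the whole peak on either strand. The lines after it are the stretches around each TCAAGGTCA, or AAGGTCA where the longer word was absent, within 1 kb of a start site of a member without a peak, with the match in capitals. They lie at chr5:65787929-65787937 (minus strand), chr1:37930178-37930186, chr8:119517262-119517268, chr8:119517792-119517798 and chr9:83819361-83819369 (plus strand), given as the span of the capitals.
Abhd11 peak: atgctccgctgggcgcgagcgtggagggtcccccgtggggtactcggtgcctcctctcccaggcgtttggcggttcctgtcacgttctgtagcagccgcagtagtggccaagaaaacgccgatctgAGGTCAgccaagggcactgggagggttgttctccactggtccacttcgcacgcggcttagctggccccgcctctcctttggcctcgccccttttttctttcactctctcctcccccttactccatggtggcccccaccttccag
Lias intron: gatcgtgagtTCAAGGTCAgcctgggtac
Lipt1 intron: ctctgtgagcTCAAGGTCAgcctggtcta
Gcsh coding exon: cggcgagcagAAGGTCAgggcggtgcg
Gcsh upstream: ctaactgcacAAGGTCAcccccatggg
Bckdhb intron: tttgattttcTCAAGGTCAcgagacaggt

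Of the 7 genes, only Abhd11 had an ESRRA peak within 30 kb, which is 14.3% of them. Over all protein-coding genes the share was 1956 of 22367, or 8.75%, with a 95% Wilson interval of 8.38 to 9.12% that covers counting error over genes only. Within 1 kb of a start site the count was again Abhd11 alone, against 465 of 22367 genes, or 2.08% (1.90 to 2.27%). With 7 genes, 1 gene fewer would bring the share to 0, and Abhd11 was chosen as a known target, so the share is no result about the group. The nearest midpoint lay 58 bp from an Abhd11 start site, and the next nearest of the members was 295 kb away, from Dbt. No other member had a peak within 100 kb. The median over the 7 genes was 372 kb, against 448 kb over all protein-coding genes, whose quartiles were 139 and 1197 kb.

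**Figure D1:**
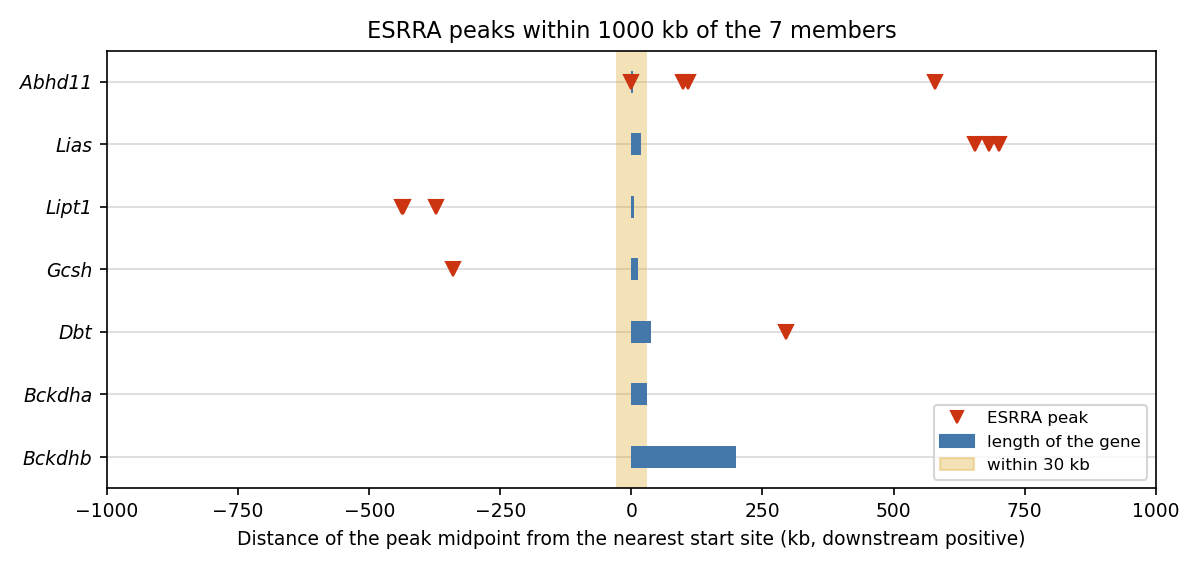
Each row is 1 of the 7 genes with its start site at 0, the horizontal axis gives distance in kb (downstream positive), triangles are peak midpoints, blue bars are gene lengths and the shaded band is 30 kb on each side. The only triangle inside the band is that of Abhd11 at 58 bp, and the rows of Bckdha and Bckdhb hold none within 1000 kb.

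Abhd11 encodes a mitochondrial alpha/beta hydrolase that is known to associate with the alpha-ketoglutarate dehydrogenase complex and to preserve its lipoyl group. The gene (ENSMUSG00000040532.8) lies at chr5:135485022-135488045 on the plus strand, and its peak spanned chr5:135485334-135485934. The midpoint fell 58 bp downstream of the nearest of 6 annotated start sites. By this distance Abhd11 ranked 48 of 22367 protein-coding genes, and 0.215% of them were as near to a peak or nearer. The word near has to be read with the transcripts in view, because the start site at 58 bp belongs to a transcript annotated as a retained intron. The coding transcript ENSMUST00000046999.8 starts 465 bp upstream of the midpoint, and ENSMUST00000111216.1, the other coding transcript, starts 612 bp upstream of it. Both of these starts lay outside the 601 bp of the peak, by 165 and 312 bp. All peaks share this width, so the edges are those of a fixed window and need not mark where binding ends. A retained-intron transcript that starts 308 bp upstream of the midpoint also began outside, by 8 bp. The other starts were inside, and all of them belong to retained-intron transcripts. Measured from them, the midpoint lay at 73, 58 and -209 bp, with downstream positive. The 601 bp window thus covered part of the first exon of ENSMUST00000046999.8, its whole first intron and part of its second exon. It did not reach the start of either coding transcript, and how far binding extended cannot be read from it.

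The RefSeq promoter windows of Abhd11 gave the same picture. Their start sites, placed on mm9 by an exact match of their sequence, lay 612, 465 and 308 bp upstream of the peak midpoint, each at an annotated GENCODE start. Of the 601 bases of the peak, 211 were coding in at least 1 transcript, 331 were untranslated in at least 1 and 142 were neither. In ENSMUST00000046999.8 alone, 459 of the bases were exon, with 248 untranslated and 211 coding. The midpoint itself fell in the coding part of exon 1.

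**Figure D2:**
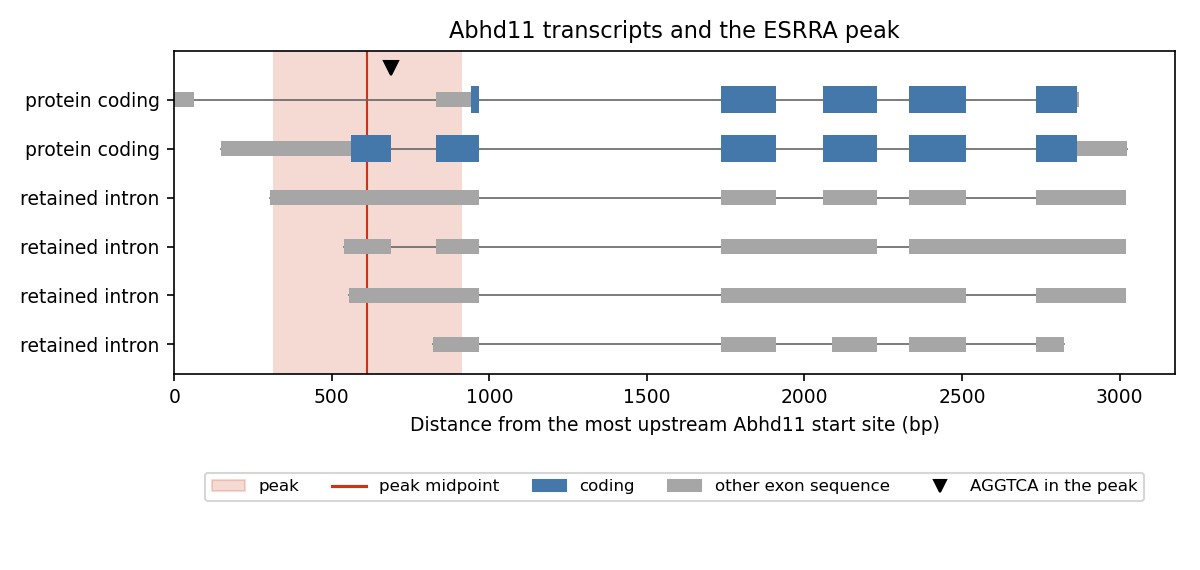
The 6 Abhd11 transcripts are drawn against distance in bp from the most upstream start site, with coding sequence in blue, other exon sequence in grey, the peak shaded and its midpoint as a line. The triangle, 76 bp past the midpoint, is the AGGTCA at the end of the first coding exon, and both coding transcripts begin left of the shaded region.

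The sequence of the Abhd11 peak held neither TCAAGGTCA nor AAGGTCA, and no stretch that differed from TCAAGGTCA by at most 1 base. Its single AGGTCA lay at chr5:135485708-135485713 on the plus strand, 76 bp from the midpoint, and was preceded by other bases than the extended site has (CTGAGGTCA). The word straddles a splice boundary: 2 of its bases are the last coding bases of exon 1 of ENSMUST00000046999.8, and 4 are the first bases of its intron. Among the 469 single-copy peaks within 1 kb of a start site, those whose 24-base words had a median genome copy number of at most 10, 82 held TCAAGGTCA (17.5%, interval 14.3 to 21.2%) and 244 held AAGGTCA (52.0%, 47.5 to 56.5%). AGGTCA occurred in 330 of them, or 70.4% (66.1 to 74.3%), and a site with at most 1 mismatch in 263, or 56.1%. The Abhd11 peak was therefore one of many promoter peaks without the longer words. The reversed word ACTGGAACT, searched as a sequence without a known meaning, occurred in 0.640% of the same peaks and not in that of Abhd11. These counts describe the letters in a fixed window and say nothing about the factor where no match was found.

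In base composition the Abhd11 peak lay near the upper quartile of the promoter peaks. It was 61.2% GC with 37 CG pairs, against a median of 56.6% (quartiles 51.2 and 62.1%) and a median of 28 pairs (quartiles 11 and 44). Its 24-base words had a median genome copy number of 1, so the sequence can be assigned to this place. The peak stood alone at the locus, since the next peak was 98.6 kb away. That peak and another, 98.4 and 107 kb downstream of Abhd11, lay in an intron of Mlxipl, which encodes the carbohydrate response element binding protein. A further peak, 579 kb downstream, was nearest to Ccl24, a chemokine gene.

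Other genes share the 30 kb around the Abhd11 peak, and distance alone does not tie a peak to 1 of them. The study's definition of a target also used gene expression in mice without the receptor, which was not examined here. The start site of Stx1a, which encodes the membrane fusion protein syntaxin 1A, was 13.7 kb from the midpoint. Cldn3, which encodes a tight junction claudin of the intestinal epithelium, was 23.3 kb from it. Nearer were the pseudogene Gm15757 at 3187 bp and the noncoding 2010001M06Rik at 3390 bp on the opposite strand, followed by the noncoding Wbscr25 at 8.41 kb. None of these 5 genes overlapped the peak. Abhd11 also lay in a gene-dense stretch, with 9 other protein-coding genes within 100 kb against a median of 4.

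Peaks placed much like that of Abhd11 were found at genes with other roles. Among 1485 other protein-coding genes outside the lists with exactly 1 peak within 30 kb, the 5 whose signed distance was closest to 58 bp were Atp5o at 61 bp, Ppia at 67 bp, Ptgr2 at 71 bp, Cox8a at 78 bp and Timm10 at 38 bp. Atp5o, Cox8a and Timm10 encode an ATP synthase subunit, a cytochrome c oxidase subunit and a chaperone of mitochondrial protein import. Ppia encodes the cytosolic cyclophilin A and Ptgr2 a prostaglandin reductase.

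The enzymes that make and transfer lipoate had no peak nearby. Lias, lipoate synthase (ENSMUSG00000029199.5, chr5:65782736-65801932, plus strand), had its nearest midpoint 656 kb downstream, and 60.0% of protein-coding genes were as near or nearer. Lias lies on the same chromosome as Abhd11, but the 3 peaks within 1000 kb of it, at 656, 683 and 700 kb, were all in introns of Rbm47, an RNA-binding protein gene, and the nearest lay 1292 bp from an Rbm47 start site. Lipt1, a lipoyl transferase (ENSMUSG00000037216.4, chr1:37928583-37934232, plus strand), had its nearest midpoint 372 kb upstream, a distance reached by 45.3% of genes. This peak lay in an intron of Mgat4a, a glycosyltransferase gene, and a pair of further peaks at 435 and 437 kb lay in an intron of Unc50. The peak at 437 kb was multi-copy, with a median genome copy number of 16 for its words.

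The lipoyl carriers among the members, Gcsh and Dbt, were also without a peak. Gcsh, the lipoylated H protein of the glycine cleavage system (ENSMUSG00000034424.5, chr8:119505710-119517437, minus strand), had its nearest midpoint 340 kb upstream, in an intron of 4933407C03Rik, and 43.1% of genes were as near or nearer. Dbt, the lipoylated core of the branched-chain dehydrogenase (ENSMUSG00000000340.6, chr3:116215988-116252894, plus strand), had its nearest midpoint 295 kb downstream, and 39.7% of genes were as near.

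Both subunits of the branched-chain decarboxylase were far from any peak. Bckdha, the alpha subunit (ENSMUSG00000060376.6, chr7:26414871-26443780, minus strand), had its nearest midpoint 1935 kb upstream, where it lay 115 bp from a start site of the kinase gene Akt2. Bckdhb, the beta subunit (ENSMUSG00000032263.7, chr9:83818757-84017846, plus strand), had its nearest midpoint 4211 kb upstream, at Cox7a2, 315 bp from the start of that cytochrome c oxidase gene. Of all protein-coding genes, 85.1% had a peak as near as that of Bckdha and 97.0% one as near as that of Bckdhb. Neither gene had a peak within 1000 kb on either side. The distances of Lias, Lipt1, Gcsh and Dbt lay between the quartiles of all genes, and those of Bckdha and Bckdhb were above the upper quartile.

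**Figure D3:**
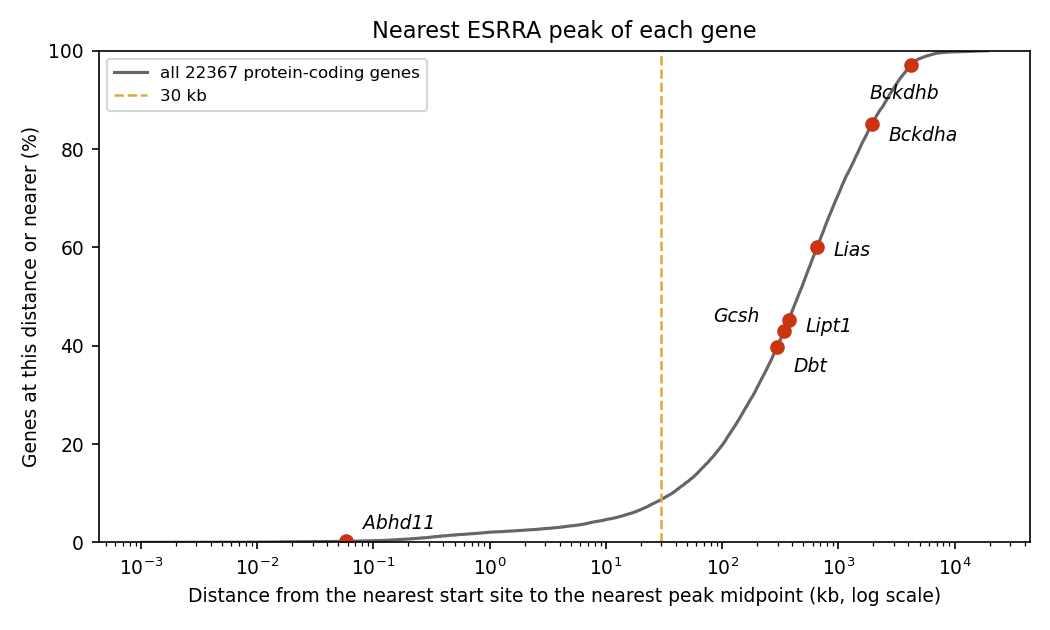
The curve gives the share of 22367 protein-coding genes (%) whose nearest peak midpoint is at the distance on the log-scaled horizontal axis (kb) or nearer, the points are the 7 genes and the dashed line marks 30 kb. Abhd11 lies at 0.215%, Dbt, Gcsh and Lipt1 between 39.7 and 45.3%, Lias at 60.0%, and Bckdha and Bckdhb at 85.1 and 97.0%.

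Gaps in the assembly were absent where checked, and repeats were limited, around these 6 genes. No unknown bases lay within 30 kb of the most upstream start site of any of them, and the further start sites were not checked for this. In the 601-base windows at the start sites of Lipt1, Dbt, Bckdha and Bckdhb every 24-base word occurred once in the genome, and at those of Gcsh between 96.9 and 100% did. Lias was lower, with 72.1 to 97.8% over its 5 start sites. GC content at the most upstream start site ranged from 45.6% for Lipt1 to 64.6% for Gcsh, and CG pairs from 9 to 53 for Lipt1 and Lias, a range that takes in the window at the Abhd11 start (58.4%, 38 pairs).

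The longer words were found near start sites of some members without a peak, in windows wider than the 601 bp peak of Abhd11. AAGGTCA lay whole within 1 kb of a start site of 4 of the 7 genes, Lias, Lipt1, Gcsh and Bckdhb, against 9815 of 22367 genes, or 43.9% (43.2 to 44.5%). With start sites of protein-coding transcripts only, it was found at 3, Lipt1, Gcsh and Bckdhb but not Lias, against 36.9% of genes. TCAAGGTCA was found at 3 of the 7, Lias, Lipt1 and Bckdhb, against 1787 genes, or 7.99% (7.64 to 8.35%). AGGTCA was found at 6 of the 7, all but Bckdha, against 17776 genes, or 79.5% (78.9 to 80.0%). Genes with more start sites have more sequence searched, and Lias has 5 and Lipt1 4. Abhd11 has 6, and held AGGTCA 3 times in its windows but neither of the longer words. AAGGTCA without a near peak is the common case, since 9815 genes held it and 465 genes had a peak within 1 kb. With 7 genes, these counts are no result about the members.

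The copies of TCAAGGTCA printed above differ in how common their surroundings are. With 5 bases on each side, the Lias copy, at -848 bp from a start site in an intron, occurred 2100 times in the genome, and the Lipt1 copy, 775 bp downstream of a start site in an intron, occurred 57 times. The Bckdhb copy, 608 bp downstream of a start site in an intron, occurred once. The AAGGTCA in a coding exon of Gcsh, 172 bp downstream of a start site, and the one 358 bp upstream each occurred once. Lipt1 held a further AAGGTCA, 375 bp upstream of a start site, whose surroundings occurred 3 times. Thus Gcsh and Bckdhb held copies whose surroundings were found once and had no called peak within 30 kb. The Abhd11 peak, a narrower window than those searched here, held the core alone. Binding to any of these words was not tested.

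The other genes of the pathway were taken from 5 lists of 66 protein-coding genes, the members included. Of the 66, 9 had a peak within 30 kb (13.6%) and 7 within 1 kb (10.6%). Without the members these were 8 of 59 genes (13.6%) and 6 of 59 (10.2%), beside 8.75% and 2.08% of all protein-coding genes, and the median distance of the 59 was 266 kb. The shares were read as descriptions, and no test of the lists was made.

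Among the genes of lipoate synthesis and transfer, 2 of 12 had a peak (16.7%), beside 8.75% of all protein-coding genes. Ndufab1, the mitochondrial acyl carrier protein on which the octanoyl precursor is made, had one 60 bp past a start site at chr7:129244860-129245460, almost the distance seen for Abhd11. Hsd17b8, a subunit of a reductase of mitochondrial fatty acid synthesis, was counted through a peak 26.9 kb away that lay 366 bp from the start of H2-K1, a class I histocompatibility gene. Of the iron-sulfur genes, 1 of 10 had a peak (10.0%). This was Isca1, an assembly protein for clusters, with the midpoint 89 bp upstream of its start at chr13:59870960-59871560.

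Of the lipoylated complexes, 3 of 14 genes had a peak within 30 kb (21.4%), beside 8.75% of all protein-coding genes. Each of the 3 was also within 1 kb, beside 2.08% of all protein-coding genes. Ogdh, the decarboxylase of the alpha-ketoglutarate complex, had a peak 137 bp past its start, spanning chr11:6192445-6193045. Dld, the dehydrogenase that reoxidises the lipoyl group of every one of these complexes, had it 142 bp downstream at chr12:32035838-32036438. Pdhb, the beta subunit of the pyruvate decarboxylase, had it 91 bp downstream at chr14:9005115-9005715. The proteins that carry the lipoyl group had none: beside Gcsh at 340 kb and Dbt at 295 kb, the nearest midpoint was 40.4 kb from Dlat, 346 kb from Dlst and 2488 kb from Pdhx. This grouping of the 5 carriers was made after their values had been seen. The other 9 genes of the list were divided, since 3 had a peak and 6 did not: Amt at 194 kb, Gldc at 358 kb, Dhtkd1 at 377 kb, Bckdha at 1935 kb, Bckdhb at 4211 kb and Pdha1 at 9267 kb. With 8.75% of all genes having a peak, none among 5 carriers is no result about them.

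Among regulators of the complexes, Abhd11 was the only one of 11 with a peak (9.09%), beside 8.75% of all protein-coding genes. No kinase or phosphatase of the list had one. At that share, and with Abhd11 chosen as a known target, this is no result about the regulators. In branched-chain amino acid breakdown, 2 of 19 genes had a peak (10.5%). Bcat2, the mitochondrial transaminase that precedes the branched-chain dehydrogenase, had a peak at -593 bp from its nearest start site, spanning chr7:52829577-52830177. That start site lies inside the gene, and the midpoint fell in an intron of Bcat2 and an exon of 0610005C13Rik. Echs1, the short-chain enoyl-CoA hydratase, was counted through 3 peaks at 10.7, 15.0 and 17.4 kb, which were nearest to the start sites of 1810014F10Rik or Prap1, a proline-rich secreted protein of the intestine. The peak at 10.7 kb lay 2 bp from a start site of 1810014F10Rik.

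**Figure D4:**
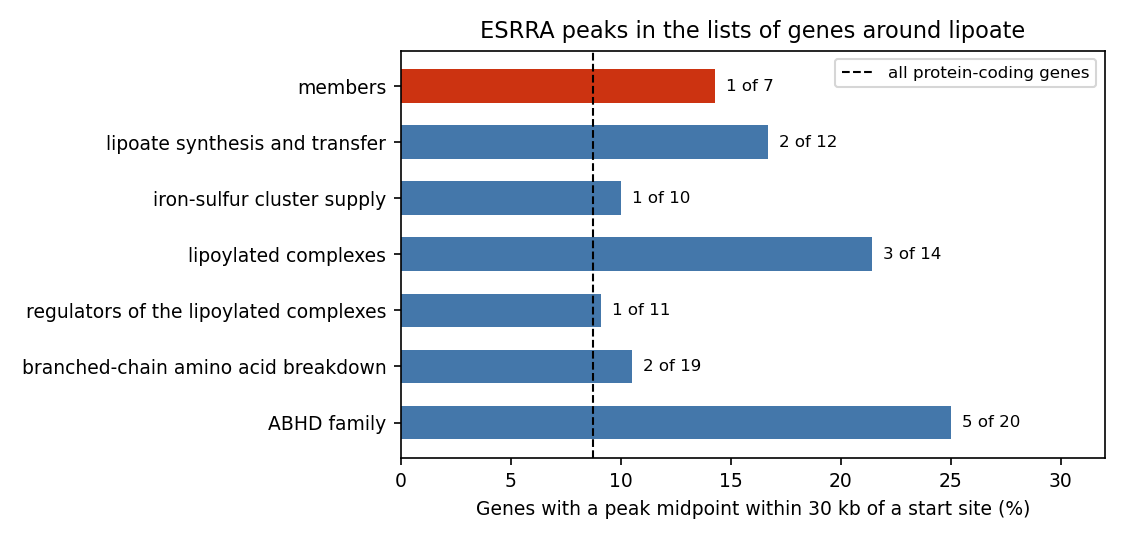
Bars give the share of protein-coding genes (%) in each list with a peak midpoint within 30 kb of a start site, with the counts beside them, and the dashed line is the 8.75% of all protein-coding genes. The lists overlap with the members, whose bar stands for Abhd11 alone.

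The peaks at these genes were set beside that of Abhd11 by their sequence, because the core occurred in some of them in longer form. None of the 11 peaks held TCAAGGTCA. AAGGTCA was found in those of Ogdh, Isca1 and Bcat2, and the peaks of Dld, Pdhb and Ndufab1 and the farthest Echs1 peak held no AGGTCA at all. A site with at most 1 mismatch to TCAAGGTCA occurred in the peaks of Ogdh, Isca1 and Ndufab1 and in the nearer Echs1 peaks. The peaks of Abhd11, Dld, Pdhb, Bcat2 and Hsd17b8 and the farthest Echs1 peak held none. The stretches below are shown with the core, or the core with the base before it, in capitals, at chr11:6192638-6192644 (plus strand), chr13:59871272-59871284 (minus strand, a pair of cores with 1 base between them) and chr7:52829985-52829991 (plus strand).
Ogdh: ttgacgtcaaAAGGTCActcaaggaac
Isca1: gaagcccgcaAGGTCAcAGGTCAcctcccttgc
Bcat2: caccttggggAAGGTCAgcagggatgt
The Isca1 cores lay 14 and 21 bp from the peak midpoint, that of Ogdh 104 bp and that of Bcat2 111 bp. Thus the peaks within 1 kb of Dld, Pdhb, Ndufab1 and Abhd11 were those without AAGGTCA, 4 of 7, and the promoter peaks as a whole held it in 52.0%.

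**Figure D5:**
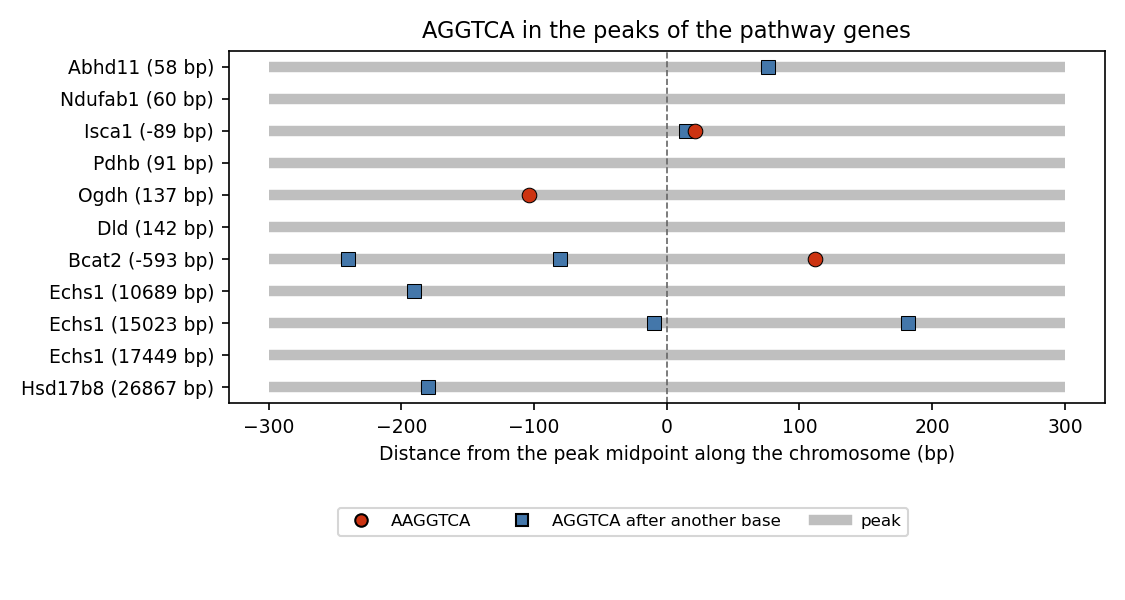
Each row is a peak linked to a pathway gene, named with the distance of its midpoint from that gene's nearest start site, the grey bar is the peak and the horizontal axis is distance from the midpoint in bp. Circles mark AAGGTCA and squares AGGTCA after another base, with a single square for Abhd11 at 76 bp and no mark for Ndufab1, Pdhb, Dld and the Echs1 peak at 17449 bp.

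Abhd11 was also compared with the other genes of its protein family, which share the alpha/beta hydrolase fold and act on different substrates. Of 20 matched family members, 5 had a peak within 30 kb (25.0%) and 2 within 1 kb (10.0%), beside 8.75% and 2.08% of all protein-coding genes. Abhd11, chosen as a known target, is in both counts, so they are no result about the family. The median distance was 242 kb. Abhd11 at 58 bp and Abhd17c, a depalmitoylase, at 784 bp were the only ones within 1 kb. Abhd4, Abhd6 and Abhd2, known as lipid hydrolases, were counted at 14.8, 19.5 and 29.5 kb. The peak of Abhd6 was multi-copy, with a median genome copy number of 11 for its words. Abhd1 is annotated as a noncoding gene in GENCODE M1 and was not counted, and its nearest midpoint lay 5.55 kb away.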

How the data were processed

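ChIP-seq of ESRRA was carried out in villus cells of the duodenum, with 2 ChIP libraries and 1 input library. The authors aligned paired-end reads to mm9 with Bowtie2 2.2.6, merged both ChIP replicates with SAMtools 0.1.19 and called peaks with MACS2 at p 1e-05. FastQC 0.11.3 and deepTools 2.4.2 are also named in the submitters' processing notes. The deposited values are the start and end of each of 1639 peaks in mm9, with no header, score or other column. How the peaks came to have 1 width is not given in the sources used here. Merging before calling removes the spread between libraries, and read depth was not analysed here.

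Peak midpoints were measured to every transcript start site of GENCODE M1 on mm9, for gene records of protein-coding type on the autosomes and sex chromosomes, with downstream taken as positive. Peaks whose 24-base words had a median genome copy number above 10 (324 peaks) were called multi-copy, and the other 1315 single-copy. Sequences were searched on both strands. Every AAGGTCA holds an AGGTCA and every TCAAGGTCA holds both, so the counts overlap. RefSeq promoters, 250 bases before to 50 after a start, belong to GRCm38.p6 and were placed on mm9 by exact sequence match only. Shares have Wilson intervals at 95%. Distances and word searches were tested on simulated data. Python 3.11.15, NumPy 2.4.6 and SciPy 1.17.1 were used.

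The members and lists were chosen with earlier results of these data known. Named were the 7 members, listed genes with a peak within 30 kb, protein-coding genes within 30 kb of the Abhd11 peak, the gene nearest to the closest peak of each member without one, and the 5 genes whose single peak was placed most like that of Abhd11. The result for 1 of these genes is not reported here. Other names (Dlat, Dlst, Pdhx and other genes of the lipoylated complexes without a peak, neighbours of other peaks, noncoding genes and Abhd1) were chosen after their values were seen. Of 86 listed symbols, 85 matched a protein-coding gene, 6 by another name. The older symbol H2-Ke6 for Hsd17b8 was added after the values had been seen. Alternatives covered the distance, the point of the peak, the start sites used, repeated sequence and the word searched.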

Additional observations from a re-analysis of the deposited data

How the results depend on the processing

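Abhd11 alone of the 7 members had a peak under each of 9 alternatives, which were distances of 1, 10 and 100 kb, the nearest edge of the peak, coding or most upstream start sites only, the gene body, the nearest gene only and single-copy peaks only. The share of all protein-coding genes with a peak was 2.08% at 1 kb, 4.64% at 10 kb and 19.8% at 100 kb, and 4.38% when each peak was given to its nearest gene. In the other alternatives it ranged from 7.91 to 10.3%. The count of pathway genes was 19 at 100 kb and between 7 and 10 otherwise. Without Hsd17b8, an alternative chosen after the values were seen, it was 8 of 65 genes (12.3%). The Abhd11 peak lay 465 bp from the nearest coding start site, 612 bp from the most upstream start site, and at 0 bp when its nearest edge was used. AAGGTCA was found at 0 members from 250 bases before to 50 after a start site, beside 9.38% of all protein-coding genes. Within 5 kb it was found at all 7, beside 89.6%. ACTGGAACT was found at 1, beside 4.56%. The remaining choices gave 3 to 6 members, beside 7.99 to 79.5% of all protein-coding genes.

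A stricter threshold was not run because the peaks carry no score, and leaving out a ChIP replicate was not run because peaks were called on merged reads. No paired analysis was possible because the result comes from 1 merged peak list with no test between groups.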
